A study of Homo sapiens with 12 samples.

Results

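The TRIM genes encode the tripartite motif family of ubiquitin ligases, and this section describes where their transcripts carried peaks of N6-methyladenosine (m6A), the methyl mark on adenosine in RNA. Members were the genes whose symbol is TRIM followed by a digit, TRIM28 apart, with a peak in at least 1 of 6 m6A peak lists. There were 43 such genes among 10536 genes with a peak in any list, and 41 of the 43 were protein coding. The cells were 143B, an established human osteosarcoma line, transfected for 48 h either with siRNA against the m6A demethylase ALKBH5 or with scrambled siRNA. Each siRNA had 3 sequenced immunoprecipitates of fragmented RNA, made with antibodies to m6A (MeRIP-seq), and each of these 6 libraries had 1 peak list. The 12 samples also held 6 inputs, which were not analysed here. The replicate number marked the method: replicates 1 and 3 used polyadenylated RNA with different antibodies, and replicate 2 used total RNA and the Magna MeRIP kit with its own antibody. That is what the protocol text says, while the antibody field names the replicate 1 antibody for all 6. All cells were of 1 line, and the labels do not say whether the replicates were separate cultures, so the spread behind each p-value may be technical. The spread within each siRNA group also holds the differences between these methods. The study looked for the transcripts that ALKBH5 targets. Below, values of a group come in the order of replicates 1, 2 and 3, the knockdown before the control.

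In a typical TRIM protein a RING finger binds an E2 enzyme loaded with ubiquitin, B-box domains and a coiled coil follow, and the C-terminal domain selects the substrate. The coiled coil lets the proteins pair and assemble. Many family members act in antiviral defence and innate sensing, and others act at chromatin, on microtubules, in RNA control or in muscle. In messenger RNA the m6A mark often lies in long exons and around the stop codon, and reader proteins that bind it alter the stability and translation of the transcript.

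The lists held between 5677 and 18724 peaks, with 5917 and 5677 in the replicate 2 libraries and at least 15139 in every other. They gave no read counts, so the depth behind them is unknown. A gene was counted as called in a library when the list had a peak with its gene number. A gene without a call may still carry the mark, since a peak also needs enough RNA and depth, and in these bulk samples fewer cells with a transcript and less RNA per cell cannot be told apart. As a check of the label, 6 of 12 fixed markers of osteosarcoma or mesenchymal cells had a peak (RUNX2 and TWIST1 among them), whereas SP7, ALPL, COL1A2, SPARC, IBSP and VIM had none. The 3 endothelial and 4 muscle markers had no peak, CLDN4 was the only epithelial marker of 6 with one, and CD14 the only blood marker of 5. Peak calls are not RNA levels, so this check is a weak one.

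Most members were called in each polyadenylated RNA library and few in the total RNA libraries. Of the 43 genes, 42, 15 and 40 had a peak with ALKBH5 siRNA, and 34, 12 and 40 with scrambled siRNA. Of all 10536 genes, 8267, 3373 and 9125 had a peak with ALKBH5 siRNA, and 7010, 3305 and 9288 with scrambled siRNA. Genes as a whole were thus also called less in replicate 2. The means were 32.3 ± 15 (SD, n = 3) and 28.7 ± 14.7 (SD, n = 3), a difference of 3.67. The SDs mostly hold the gap between replicate 2 and the others, and within pairs the knockdown had 8, 3 and 0 more genes. Over all genes the differences within pairs were 1257, 68 and -163. The difference of 3.67 turned in sign without knockdown replicate 1 (-1.17), knockdown replicate 3 (-0.17) or control replicate 2 (-4.67). Each of these steps gave replicate 2 more weight in the knockdown mean than in the control mean. Without both libraries of replicate 1, 2 or 3 the difference was 1.5, 4 or 5.5.

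The knockdown lists held 76, 24 and 70 TRIM peaks and the control lists 60, 18 and 71, which makes 319. They made up 0.470, 0.440 and 0.415% of the peaks with a gene number in the knockdown lists, and 0.433, 0.343 and 0.415% in the control lists. The mean share was 0.442 ± 0.028% (SD, n = 3) in the knockdown against 0.397 ± 0.048% (SD, n = 3); within pairs the differences were 0.038, 0.098 and 0.00040 percentage points. The share differed most within replicate 2, whose lists held the fewest TRIM peaks, and hardly at all within replicate 3. Without both replicate 2 libraries the difference was 0.019 percentage points, against 0.045 with them.

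More exon length lay under TRIM peaks with ALKBH5 siRNA than with scrambled siRNA in each same-numbered pair. It came to 26775, 4297 and 35583 nt against 16953, 3158 and 32623 nt. Knockdown over control was 1.58, 1.36 and 1.09, beside 1.57, 1.13 and 1.00 for all peaks with a gene number. As a share of the covered length of the list, TRIM peaks held 0.474, 0.399 and 0.461% in the knockdown and 0.471, 0.330 and 0.425% in the controls. In replicate 1 the ratio of the TRIM genes was thus close to that of the whole list. Without knockdown replicate 3 or control replicate 2 the difference of mean lengths turned from 4640 nt to -2042 or -2570 nt. Either step gave replicate 2, with its short lists, more weight in the knockdown mean than in the control mean. With both libraries of replicate 1, 2 or 3 left out together the difference was 2050, 6391 or 5481 nt.

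**Figure D1:**
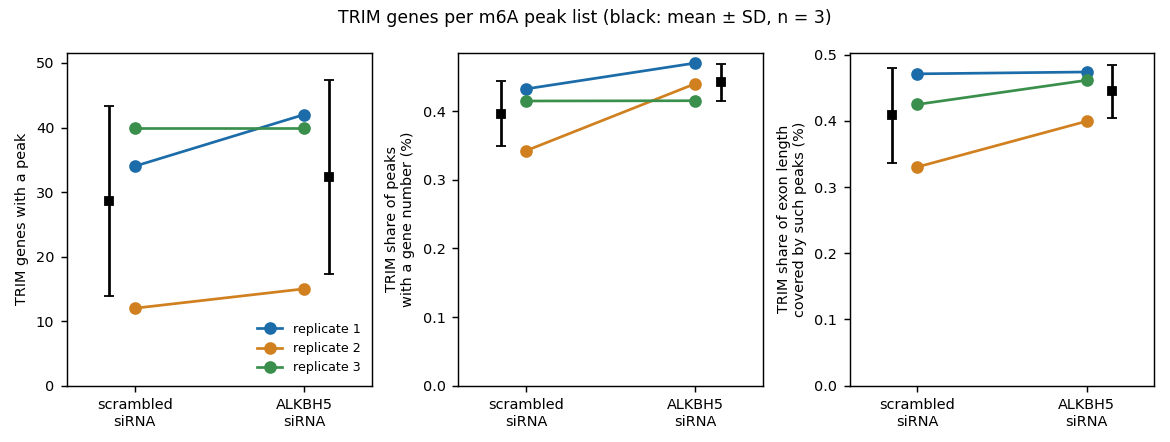
TRIM genes with a peak, TRIM share of peaks and TRIM share of covered exon length (vertical axes) in the scrambled and ALKBH5 siRNA libraries, joined by replicate number, with mean ± SD in black (n = 3). Replicate 2 sits lowest for the number of genes (12 and 15), and the shares overlap between the groups.

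Of the 43 genes, 12 were called in more knockdown than control libraries, 3 in fewer and 28 in equal numbers. Over all 10536 genes the shares were 26.1, 17.1 and 56.8%, so the share of TRIM genes with more knockdown calls (27.9%) was near the background. The share with fewer (6.98%) lay below it and rested on TRIM13, TRIM6 and TRIM34. Within the replicate 1 pair, 8 members had a call with ALKBH5 siRNA alone and 0 with scrambled siRNA alone (background 16.9 and 5.00%). Within replicate 2 the counts were 4 and 1 (7.99 and 7.35%), and within replicate 3 they were 2 and 2 (6.28 and 7.83%). Without both libraries of replicate 1, 6 members had more knockdown calls and 3 fewer. The balance turned when 1 library was left out, to 13 more and 19 fewer without knockdown replicate 1 or knockdown replicate 3. Without control replicate 2 it was 9 and 20, and without knockdown replicate 2 it was 29 and 2. Calls were compared here as fractions of libraries. The 15 genes called in both libraries of replicates 1 and 3 and in neither of replicate 2 thus became unequal by construction. Counting only genes with at least 2 peaks in a library, 15 members had more knockdown calls and 7 fewer. The shares over all genes were not recomputed for these settings, and the background above does not apply to them.

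No member had a peak in all 3 libraries of one siRNA and none of the other, a pattern found in 0.114% of all genes with the knockdown higher and in 0.0285% with it lower. The largest differences in calls were those of TRIM8 and TRIM35, each with 2 more knockdown libraries. TRIM35, a RING and SPRY protein, had 1 peak of 211 nt in knockdown replicate 1 and 1 of 151 nt in knockdown replicate 3, and none elsewhere. Both lay in the region at chromosome 8, 27145156 to 27145366 (hg19, minus strand), and the replicate 3 peak ranked low, at percentile 10.1 of its list (the best-scored peak has the highest percentile). Neither peak was left in the best-scored 50% of the lists or with all lists at the size of the shortest, where the difference for TRIM35 was 0. TRIM8, a ligase known from cytokine signalling, had peaks in all 3 knockdown libraries and in control replicate 3 alone, with 1, 1 and 3 peaks against 0, 0 and 3. Its peaks covered 91, 60 and 570 nt in the knockdown and 571 nt in control replicate 3, over 4 regions, and no region was shared by the 3 knockdown libraries. The replicate 3 pair, where the gene had most of its covered length, thus differed by 1 nt.

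**Figure D2:**
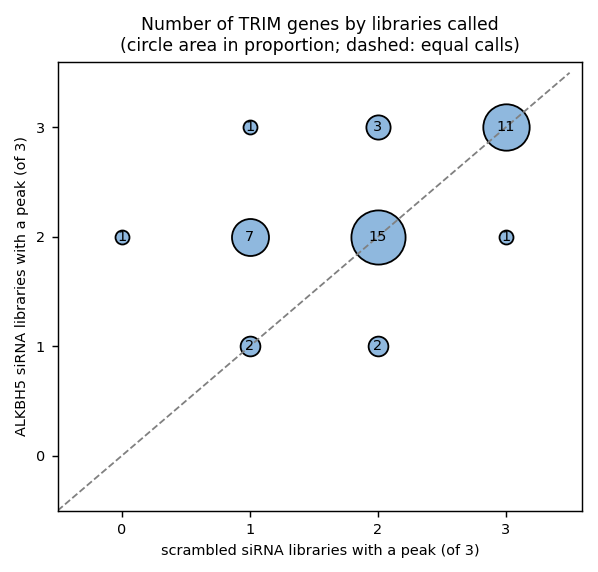
Number of TRIM genes (in the circles, area in proportion) by how many scrambled siRNA libraries (horizontal axis, of 3) and ALKBH5 siRNA libraries (vertical axis, of 3) had a peak. The 15 genes called in 2 and 2 and the 11 called in all 6 lie on the dashed line of equal calls, 12 genes lie above it and 3 below.

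The call patterns differed most between replicate 2 and the others. Replicate 2 differed in RNA and antibody and had the shortest lists, which cannot be told apart. There were 15 members with a peak in both libraries of replicates 1 and 3 and in neither of replicate 2. No peak in any replicate 2 library was found for 27 members (62.8%, beside 60.6% of all genes). This leaves 16 with one (37.2%, beside 39.4% of all genes). The 11 members called in all 6 libraries compare with 23.3% of all genes. These 15 were TRIM3, TRIM4, TRIM5, TRIM7, TRIM9, TRIM16, TRIM24, TRIM36, TRIM52, TRIM58, TRIM59, TRIM62, TRIM65, TRIM66 and TRIM68. A further 6 members, TRIM16L, TRIM23, TRIM39-RPP21, TRIM47, TRIM52-AS1 and TRIM69, were missing from control replicate 1 as well. TRIM37, a ligase of the centrosome and the peroxisome, was called only in replicate 3, with 300 nt in the knockdown and 210 nt in the control. Of the members, 16 had a peak in at least 1 library of every pair, and their covered lengths are the ones that can be compared within all 3 pairs.

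**Figure D3:**
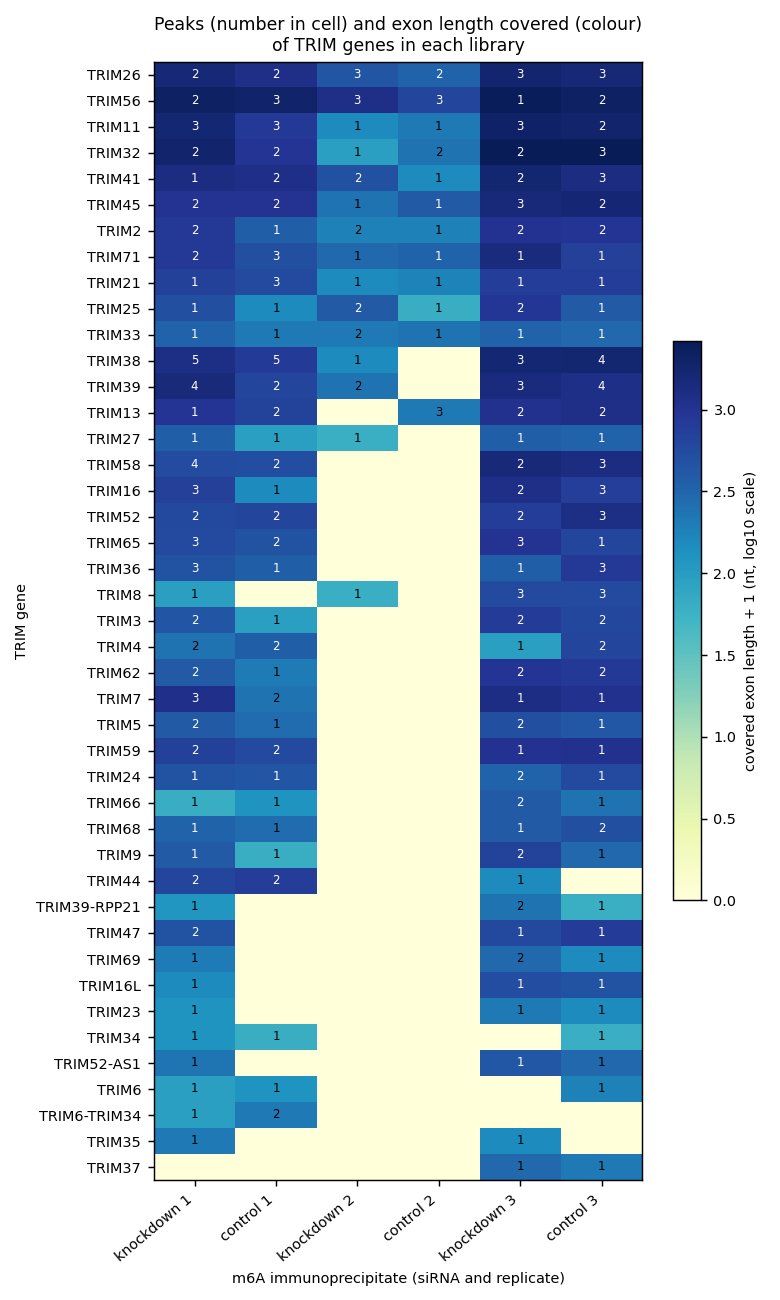
Number of peaks (in the cells) and covered exon length + 1 on a log10 scale (colour) for the 43 TRIM genes in the 6 libraries, ordered by libraries called and then by total peaks. The 11 genes at the top have a peak in every library, and the replicate 2 columns are empty for 27 genes.

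Each gene was tested for its covered length and for its number of peaks by exact permutation, two-sided, of 3 libraries against 3. The p-values were adjusted over all 10536 genes by the method of Benjamini and Hochberg. The permutation ignored the replicate pairs and treated libraries made by unlike methods as exchangeable. With these exact permutation tests 0 of 10536 genes (0%) passed 0.05, adjusted or unadjusted, because this test of 3 against 3 cannot go below p = 0.1. That smallest p was reached by 0 members. Of all genes, 0.285% reached it with longer and 0.0285% with shorter covered length in the knockdown, and 0.209% with more and 0.152% with fewer peaks. Among the members the smallest unadjusted p of the exact permutation test was 0.2 for covered length and 0.3 for peaks, and every adjusted p was 1. Mean covered length was higher in the knockdown for 33 members and lower for 10, beside 65.3 and 32.9% of all genes. The median difference was 90 nt over the members and 40 nt over all genes. Members also had more covered length, with a median of 325.3 nt per gene (mean of the 6 libraries) against 269 nt over all genes. Of the members 0 were called in 1 library only, beside 12.9% of all genes. The 2 median differences are thus not on a like scale. By pair, 35 members were longer in the knockdown and 6 shorter in replicate 1 (67.3 and 14.7% of all genes), 9 and 7 in replicate 2 (20.6 and 16.9%), and 29 and 13 in replicate 3 (45.5 and 44.1%).

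The smallest p belonged to TRIM25, a PRY-SPRY ligase that ubiquitinates the RNA sensor RIG-I (gene number 7706). Its peaks covered 509, 390 and 899 nt against 150, 61 and 390 nt. Each knockdown library was higher than its own control, but the groups overlapped at 390 nt, the value of both knockdown replicate 2 and control replicate 3. The means were 599.3 ± 266.3 nt (SD, n = 3) and 200.3 ± 170.2 nt (SD, n = 3), and knockdown over control was 3.39, 6.39 and 2.31 (exact permutation test, p = 0.2, adjusted p = 1). The number of peaks was 1, 2 and 2 against 1 in each control. All 3 control peaks lay in 1 region at chromosome 17, 54968980 to 54972721 (minus strand, 629 nt of exon in 2 blocks), which was called in all 6 libraries, and knockdown replicate 3 added a region of 270 nt further 3′.

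Covered length was longer in the knockdown of all 3 pairs for 7 members, TRIM2, TRIM25, TRIM26, TRIM27, TRIM39, TRIM41 and TRIM56, and shorter in all 3 for none. Over all genes 13.0% were longer and 1.42% shorter in every pair. Among the 4045 genes with a peak in every pair the shares were 33.8 and 3.71%, against 7 and 0 of the 16 TRIM genes. An exact sign-flip test over the pairs gives such a gene p = 0.25, the smallest that 3 pairs allow. Covered length over the whole list was also larger in knockdown replicates 1 and 2, so the lengths were expressed as a share of the length covered in the same list. On that scale 3 members were higher in every pair (TRIM25, TRIM27 and TRIM39) and 3 lower (TRIM13, TRIM21 and TRIM45), beside 7.27 and 6.91% of all genes, or 18.9 and 18.0% of those with a peak in every pair. The members were then split evenly between the directions, as all genes nearly were.

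TRIM56, which acts against RNA viruses and in DNA sensing, had its best peak between percentiles 98.1 and 99.6 of every list. Longer peaks tended to score better in every list, so the rank of TRIM56 is not separate from the length of its peaks. Its peaks covered 2156, 1138 and 2483 nt in the knockdown and 1886, 630 and 2125 nt in the controls. All of them joined into 1 region on the plus strand of chromosome 7, 100728846 to 100733174, with 2752 nt of exon in 3 blocks. In knockdown replicate 3 this was a single peak of 2483 nt, the longest TRIM peak, whereas control replicate 3 had 2 peaks there. The mean difference of 378.7 nt for TRIM56 was 433, 314 and 389 nt without both libraries of replicate 1, 2 or 3. It turned to -79.8 nt without control replicate 2, which left the short replicate 2 list in the knockdown group alone. TRIM26, a ligase of the major histocompatibility region, had 1557, 451 and 1767 nt in the knockdown and 1138, 331 and 1559 nt in the controls. Its mean difference of 249 nt was 164, 313.5 and 269.5 nt without each pair in turn. It became -5.33 nt without knockdown replicate 3 and -90.2 nt without control replicate 2. Either step gave replicate 2 more weight in the knockdown mean than in the control mean. TRIM26 was the only member with more than 1 region called in all 6 libraries, at chromosome 6, 30153249 to 30157023 and 30166258 to 30166997 on the minus strand. TRIM27, which takes part in endosomal transport, had 360, 60 and 359 nt against 91, 0 and 330 nt, but its 60 nt peak in knockdown replicate 2 lay in a region of its own that no other library called.

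The remaining 3 differed in how the gap was spread over the pairs. TRIM41, a RING and SPRY ligase, had 1318, 481 and 1737 nt in the knockdown and 1170, 151 and 1320 nt in the controls. Its main region ran from 180650293 to 180657810 of chromosome 5, plus strand, with 1587 nt of exon. The mean difference of 298.3 nt for TRIM41 was 373.5, 282.5 and 239 nt without each pair in turn. It became -66.3 nt without control replicate 2, which left replicate 2 in the knockdown group alone. For TRIM39, a ligase linked to cell cycle control and apoptosis, the values were 1444, 242 and 1383 nt against 632, 0 and 1174 nt. TRIM39 was called in 3 knockdown and 2 control libraries, in 5 regions. TRIM2, an NHL repeat protein known from neurons, had 842, 182 and 1022 nt against 361, 181 and 962 nt, so its replicate 2 pair differed by 1 nt. That near tie sums different sites. In the TRIM2 region called in all 6 libraries, replicate 2 had 61 nt in the knockdown against 181 nt. The other 121 nt of knockdown replicate 2 lay in a region that control replicate 2 did not call.

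**Figure D4:**
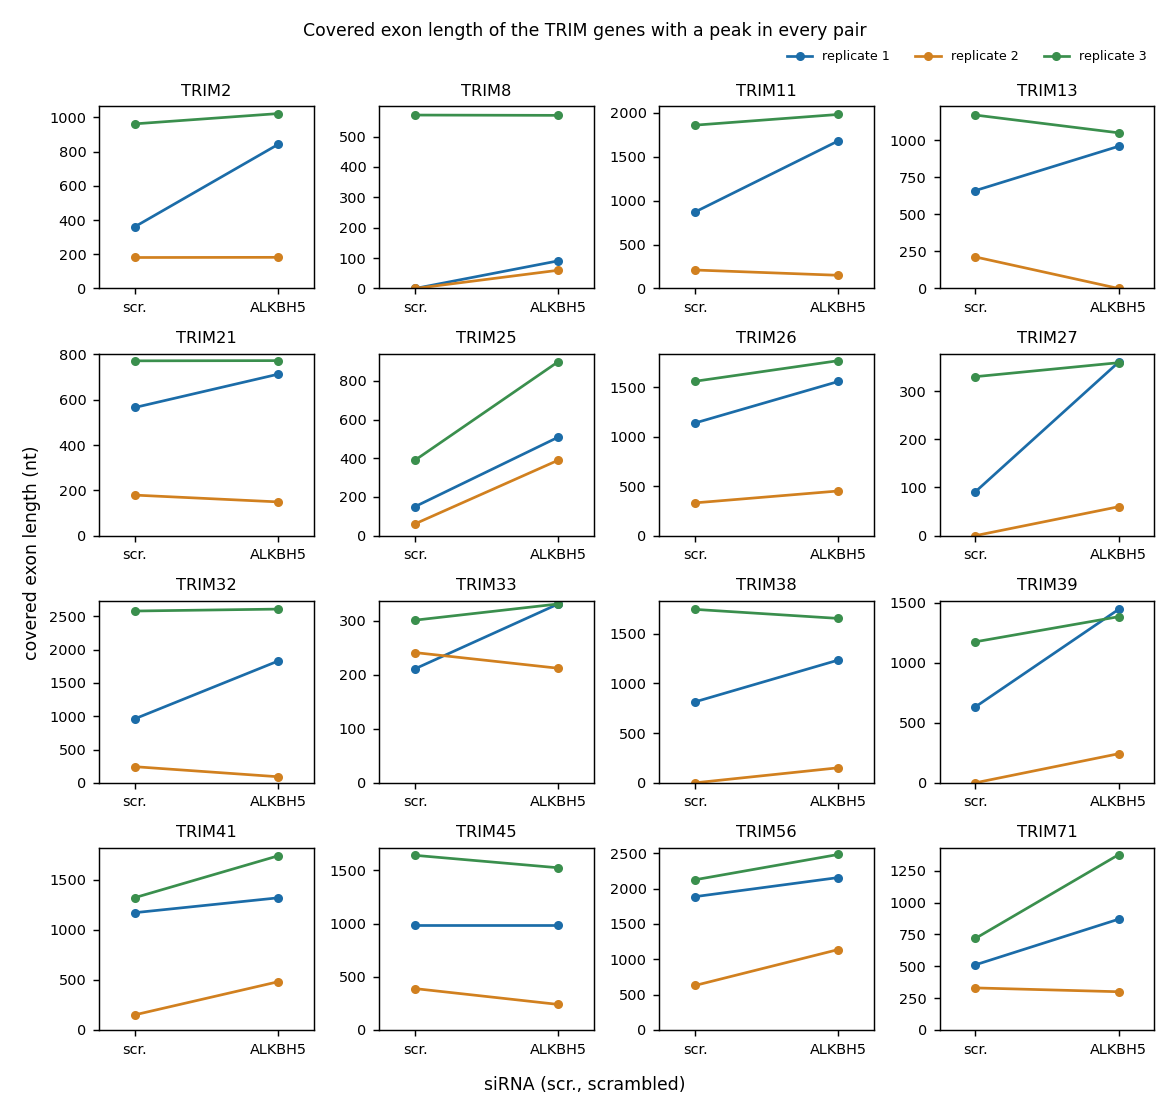
Exon length covered by peaks (vertical axis, nt) with scrambled and ALKBH5 siRNA for the 16 TRIM genes with a peak in every pair, 1 line per replicate. All 3 lines go up for 7 genes, among them TRIM25, and for no gene do all 3 go down.

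The other members called in all 6 libraries were not longer in every pair. TRIM71, an RNA-binding NHL protein of early development, had 869, 300 and 1375 nt in the knockdown and 511, 330 and 718 nt in the controls. The groups overlapped. For TRIM32, an NHL protein mutated in a muscular dystrophy, the lengths were 1830, 91 and 2610 nt against 962, 242 and 2581 nt. TRIM11 covered 1680, 150 and 1980 nt against 871, 210 and 1858 nt. TRIM21, the cytosolic antibody receptor, covered 713, 149 and 773 nt against 566, 179 and 772 nt. TRIM45, a RING protein with a filamin domain, was the only one of the 11 with no pair longer in the knockdown, at 987, 240 and 1525 nt against 987, 389 and 1642 nt. TRIM33, a chromatin ligase, had 331, 212 and 331 nt against 211, 241 and 301 nt. TRIM71, TRIM32, TRIM11, TRIM21 and TRIM33 thus were each longer in replicates 1 and 3 and shorter in replicate 2.

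Ordered by C-terminal domain, the counts were as follows. PRY-SPRY genes made up 20 of the members (of 33 listed), of which 5 were called in all 6 libraries, 6 in more and 2 in fewer knockdown libraries, and 5 were longer in every pair. The shares over all genes were 23.3, 26.1, 17.1 and 13.0%. Only 8 of the 20 had a peak in every pair, and for all genes with one the share longer in every pair was 33.8%. As a share of the list, TRIM25, TRIM27 and TRIM39 of the 5 were higher in every pair. All 4 genes with NHL repeats had a peak, each in equal numbers of knockdown and control libraries, and all but TRIM3 were called in all 6. The 3 genes with PHD and bromodomains, TRIM24, TRIM33 and TRIM66, read histone marks, and their calls were also equal. TRIM24 covered 479, 0 and 331 nt against 449, 0 and 568 nt. TRIM66 covered 61, 0 and 392 nt against 121, 0 and 241 nt, and its knockdown replicate 1 peak ranked at percentile 6.1.

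Of the 7 genes listed with a COS domain, which binds microtubules, only TRIM9 and TRIM36 had a peak. TRIM9, a brain ligase, covered 389, 0 and 660 nt against 61, 0 and 300 nt. TRIM36 covered 453, 0 and 361 nt against 361, 0 and 872 nt, in opposite directions in its pairs. The 5 genes with MATH, ARF, filamin or transmembrane domains all had a peak. Of these, TRIM13, a ligase of the endoplasmic reticulum, was the only member called in fewer knockdown libraries through replicate 2, with 960, 0 and 1051 nt against 661, 213 and 1171 nt. TRIM23, whose ARF domain binds GTP, covered 121, 0 and 211 nt against 0, 0 and 151 nt.

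Of 5 genes listed as lacking a RING finger, TRIM16, TRIM16L and TRIM44 had a peak. TRIM44 covered 630, 0 and 151 nt against 780, 0 and 0 nt, and so was called in replicate 3 with ALKBH5 siRNA alone. TRIM16 covered 722, 0 and 1140 nt against 150, 0 and 753 nt. TRIM16L, a transcribed pseudogene close in sequence to TRIM16, had 150, 0 and 538 nt against 0, 0 and 479 nt, and reads of these copies may have been shared between them.

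Of 12 genes listed for antiviral defence and innate sensing, 9 had a peak. These were TRIM5, TRIM21, TRIM23, TRIM25, TRIM26, TRIM27, TRIM38, TRIM56 and TRIM65, while TRIM14, TRIM22 and TRIM31 had none. In this group 3 genes were called in more knockdown libraries and 0 in fewer, 4 were longer in every pair, beside 26.1, 17.1 and 13.0% of all genes. Of the 6 with a peak in every pair these 4 compare with 33.8%, and as a share of the list only TRIM25 and TRIM27 were higher in every pair. The median difference of covered length was 159.3 nt, beside 90 nt over the members and 40 nt over all genes. These differences were not scaled to the covered length of the genes. The group was listed with earlier results of these data known and is no independent evidence of a direction. TRIM38, which restrains Toll-like receptor signalling, had the most peaks of any member, 18 over the lists, with 1234, 151 and 1652 nt against 814, 0 and 1743 nt. TRIM5, a restriction factor that binds retroviral capsids, covered 391, 0 and 511 nt against 270, 0 and 420 nt. The region of TRIM5 at chromosome 11, 5699469 to 5699589 (minus strand) was called in those knockdown libraries, with 121 and 91 nt, and in no control. Its neighbouring region at 5701118 to 5706196 covered 270 and 420 nt with either siRNA. TRIM47, a PRY-SPRY ligase, covered 478, 0 and 595 nt against 0, 0 and 803 nt.

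The other members absent from replicate 2 differed among themselves in direction. TRIM7 covered 1106, 0 and 1254 nt against 240, 0 and 1046 nt, and TRIM3, an NHL protein, 451, 0 and 810 nt against 91, 0 and 600 nt. TRIM62 covered 389, 0 and 955 nt against 209, 0 and 864 nt, and TRIM65 570, 0 and 989 nt against 452, 0 and 629 nt. In these genes both pairs with a peak were longer in the knockdown. TRIM4 covered 241, 0 and 91 nt against 360, 0 and 630 nt, and TRIM52 596, 0 and 774 nt against 625, 0 and 1220 nt, both pairs shorter. TRIM68 was longer in replicate 1 and shorter in replicate 3, with 329, 0 and 389 nt against 270, 0 and 509 nt. TRIM59 had the same directions, with 717, 0 and 1015 nt against 568, 0 and 1045 nt. TRIM58 covered 544, 0 and 1499 nt against 541, 0 and 1320 nt. TRIM69 and TRIM52-AS1 were missing from control replicate 1, with 209, 0 and 298 nt against 0, 0 and 149 nt and 236, 0 and 413 nt against 0, 0 and 296 nt.

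Members varied widely in the number and length of their peaks. They had between 2 and 18 peaks over the lists (median 7, against 6 for all genes), and between 1 and 5 peaks in any library that called them. Single peaks ranged from 60 to 2483 nt, and the median TRIM peak was 255, 150.5 and 360.5 nt in the knockdown lists and 210, 151 and 330 nt in the controls. Over all peaks with a gene number the medians were 269, 151 and 331 nt and 209, 151 and 331 nt. Peaks over more than 1 exon block were 14.5, 8.33 and 17.1% of TRIM peaks in the knockdown lists and 11.7, 0 and 14.1% in the controls. The corresponding shares for all peaks with a gene number were 15.3, 4.79 and 18.3% and 12.1, 4.36 and 15%.

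Joined across libraries where exon blocks overlapped on a strand, the TRIM peaks formed 90 regions of the 21675 in the series, with a median of 345.5 nt of exon. Of these, 36 were called in more knockdown libraries, 20 in fewer and 34 in equal numbers, beside 32.6, 23.1 and 44.3% of all regions. None had a peak with ALKBH5 siRNA in every replicate and none with scrambled siRNA (0.129%) or the reverse (0.00923%). Those of TRIM35 and TRIM5 were the only 2 called in at least 2 knockdown libraries and no control (2.22%, beside 2.44% of all regions). The opposite pattern was found in 0, beside 0.978% of all regions. A single library called 29 of the TRIM regions (32.2%), beside 28.9% of all regions.

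The 12 TRIM regions called in all 6 libraries (13.3%, beside 12.7% of all regions) lay in 11 genes and were long, with a median of 1210.5 nt of exon. In replicate 1 all 12 were longer in the knockdown (89.3% of such regions in the series), in replicate 2 only 4 (51.0%) and in replicate 3 11 (59.3%). Those of TRIM25, TRIM41 and TRIM56 and the region of TRIM26 at 30166258 to 30166997 were longer in every pair, 4 of 12 beside 31.6%, and 0 were shorter in every pair (1.92%). In replicate 3 the exception was TRIM45, with 1224 nt under either siRNA. The knockdown and control peaks of replicate 2 overlapped directly in 9 of the 12 regions, beside 96.8% of the 2759 such regions. In TRIM2, TRIM11 and TRIM21 they lay in different parts of the region, joined only through the longer peaks of other libraries. The lists give no summits, and no annotation of their build was used here, so the position of these peaks relative to coding sequence and UTR was not analysed here.

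**Figure D5:**
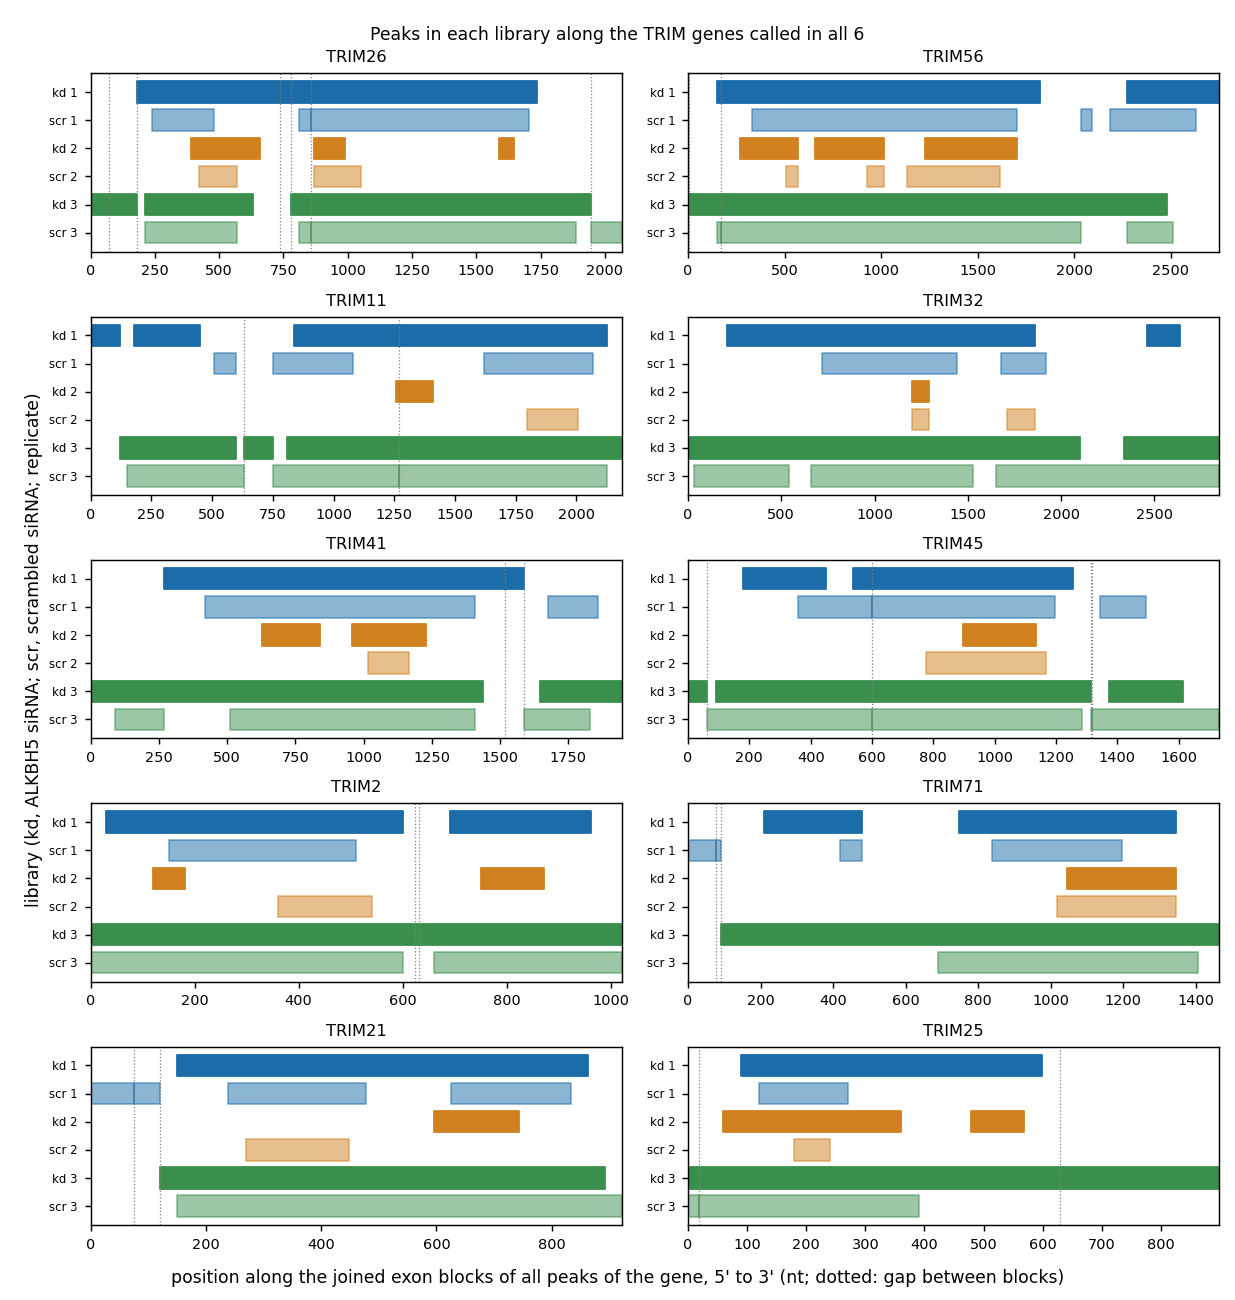
Peaks of each library along the joined exon blocks of 10 TRIM genes called in all 6 libraries, 5′ to 3′ (horizontal axis, nt; dotted lines mark gaps between blocks; dark bars knockdown, pale bars control). In replicate 2 the knockdown and control peaks of TRIM2, TRIM11 and TRIM21 do not overlap, while in TRIM25 the control peak of 61 nt lies within the knockdown peaks.

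Some members share their positions with other genes. The readthrough entries TRIM39-RPP21 and TRIM6-TRIM34 had 4 and 3 peaks, and 5 regions held peaks of more than 1 TRIM gene number. TRIM6 and TRIM34 had 3 peaks each and TRIM6-TRIM34 had 3, all in replicate 1 libraries or control replicate 3. Calls in those 5 regions cannot be assigned to one gene, whereas TRIM6, TRIM34 and TRIM39 also had regions with their number alone. A region of TRIM59 also held peaks of IFT80, and a region of TRIM58 held peaks of OR2W3. Peaks without a gene number, 37 in all, overlapped the regions of TRIM13, TRIM32, TRIM56 and TRIM59, each in a library that also had a numbered peak there, so they altered no call. They are left out of the covered length per gene and included in the length per region. TRIM52-AS1 is an antisense transcript. The libraries were stranded per the labels, but whether strand entered the peak calling was not stated there.

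Of the 76 protein-coding TRIM symbols in the gene table, 35 had no peak in any list. Among them were the muscle ligases TRIM54, TRIM55 and TRIM63, the repair protein TRIM72, and TRIM22 and TRIM29. The share of all protein-coding genes without a peak was not computed here. Neither this count nor those of the listed groups above can therefore show whether TRIM genes lacked peaks more often than others. The members lay on 14 chromosomes, with 9 on chromosome 11, 6 each on chromosomes 5 and 17, and 5 each on chromosomes 1 and 6.

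Of 10 family members listed under other names, 5 had a peak, 3 in more knockdown libraries and 0 in fewer. PML, the scaffold of nuclear bodies, had 601, 61 and 841 nt in the knockdown and 270, 0 and 841 nt in the controls. RNF135, a partner ligase of RIG-I, had 390, 61 and 450 nt against 241, 0 and 450 nt. MID2, a microtubule-bound ligase, had 421, 0 and 661 nt against 0, 0 and 451 nt. Of 29 listed ubiquitin, E1 and E2 genes, 13 had a peak, 2 in more and 2 in fewer knockdown libraries. UBA6, an E1 enzyme, and UBE2D3, an E2 enzyme that works with many RING ligases, were the 2 with fewer. UBE2G1 and UBE2Z were each called in 2 knockdown libraries and 1 control library. Among 56 genes of the RNF series of RING ligases, 10 were called in more and 12 in fewer knockdown libraries, and 9 were longer in every pair (17.9, 21.4 and 16.1%). For each of these 3 lists the shares over all genes are 26.1% in more, 17.1% in fewer and 13.0% longer in every pair. Whether these counts differ from those of the TRIM genes was not tested.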

How the data were processed

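The submitters' processing notes name CASAVA 1.8.2, TopHat2, SAMtools and the build hg19, without their roles. The peak caller and its threshold are not stated in the labels. The authors deposited 1 list per library with position, strand, exon blocks, gene number and a score. These deposited scores (0 to 0.011) were read as the peak caller's p-values from their range, and they served to rank peaks inside each list and to select the best. The other deposited columns used were positions and block counts.

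Gene numbers were named through a RefSeq table of GRCh38.p14 (10500 of 10536 matched). Covered length is the summed exon block length of a gene's peaks. Regions join peaks whose blocks overlap by at least 1 nt on a strand. Tests were exact permutation tests in Python 3.11.15 with NumPy 2.4.6. The permutation test was checked only on simulated peak numbers with large changes, and covered length was not simulated. That check does not show what the test can detect in these data. Depth is unknown, so no interval was computed.

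The replicate numbers pair the libraries, since the labels' protocols tie each number to a method. Across regions, the deviations from the group means of libraries with one number correlated at 0.24, 0.31 and 0.29, and for covered length per gene at 0.24, 0.92 and 0.88. The replicate 2 lists were the shortest and the replicate 3 lists the longest under both siRNAs. These correlations therefore cannot show whether the libraries were paired.

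Members, gene lists and tests were chosen with earlier results of these data known. The rule named up to 10 members called in all 6 libraries by total peaks, those whose calls differed by 2 or more libraries, those with a region in at least 2 libraries of one condition only, and up to 3 per list. Other members named were chosen after their values were seen, as were the scaling to covered length and the set without readthrough and noncoding symbols.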

Additional observations from a re-analysis of the deposited data

How the results depend on the processing

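The lists hold no counts, so depth limits what a missing call means, and the exact test used cannot pass 0.05 with 3 libraries against 3. Results were recomputed with the best-scored 50% of peaks, with list sizes made equal over all libraries or within pairs, without each library or number, with positions of 1 gene only, with at least 2 peaks per call, and with regions joined at 50 nt of overlap or after extension by 100 nt. The number of members called in more knockdown libraries (12) ranged from 6 to 29 when a library or number was left out. The number called in fewer (3) then ranged from 1 to 20, and was 6 with the best-scored 50%, 5 at equal size within pairs and 7 with at least 2 peaks per call. Leaving out 1 library made the groups unequal, with replicate 2 weighing more or less in each. Genes called in equal numbers but not in replicate 2 then counted as unequal by construction. The shares over all genes were not recomputed for these settings. Regions called only in the knockdown (0) ranged from 0 to 2 over the libraries left out, and those only in the control stayed at 0. The difference in TRIM genes with a peak was 2.67 with the best-scored 50% and 2.33 at equal size within pairs. Expressed as a percent of the list, covered length gave a difference of 0.036 percentage points, and -0.0030 without control replicate 2. Without readthrough and noncoding symbols the differences were 2.67 genes, 6 peaks and 4394 nt. With the replicate number as a block, the mean differences were unchanged by construction (3.67 genes, 7 peaks and 4640 nt), and 0 genes passed the exact sign-flip test at an adjusted or unadjusted p under 0.05. Among 28 named genes, the sign of the difference in covered length turned in 51 of 364 values recomputed without the block. For 7 of the 28 (TRIM2, TRIM9, TRIM25, TRIM27, TRIM33, TRIM39 and TRIM71) it neither turned nor reached 0. Values without 1 library again weighed replicate 2 unequally. TRIM26, TRIM41 and TRIM56, longer in every pair, turned only in such values and never without a whole replicate number. TRIM33 and TRIM71 are among the 7 although shorter in the knockdown of replicate 2. The 7 are therefore not the genes with the steadiest direction across pairs. The difference fell to 0.5 nt for TRIM33 without both libraries of replicate 1, and to 10.7 nt for TRIM2 without knockdown replicate 3. For TRIM16, TRIM23 and TRIM35 it reached 0, with all lists at the size of the shortest and, for TRIM23 and TRIM35, also with the best-scored 50%. No peak of these genes was then left in any list, so these values compare nothing.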
